A study of Homo sapiens with 19 samples.

Results

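The 10 genes TYR, TYRP1, DCT, PMEL, MLANA, OCA2, SLC45A2, SLC24A5, TRPM1 and MC1R, which encode the enzymes of melanin synthesis, proteins of the melanosome and a channel and a receptor of pigment cells, were followed by RNA-seq in 2 human pigment cell lines. They were chosen by name, matched by symbol to the Ensembl identifiers of the deposited counts, and all 10 were found among the 44717 gene identifiers listed for any sample. The values describe 19 samples in 7 groups. 501Mel, a human melanoma line, was infected with lentiviral vectors expressing shBRG1 or the scramble control shSCR1 (3 replicates each), or with shMITF or the scramble control shSCR2 (2 replicates each). Hermes 3A, an untransformed human melanocyte line, was infected with shSCR, shBRG1 or shMITF (3 replicates each). Each targeted gene was silenced with 1 shRNA construct, so that effects of the construct and of the targeted gene cannot be told apart. Every group was infected, and the time from infection to RNA extraction is not given in the sources used here. Both lines were grown in RPMI medium with serum, and the Hermes 3A medium also held TPA, cholera toxin, stem cell factor and endothelin-1. The labels number the replicates and do not say whether they came from separate cultures, so that p-values measure only the spread between these samples, which may be technical.

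Melanin is made in the melanosome, a lysosome-related organelle of melanocytes. TYR oxidises tyrosine and DOPA, the step that limits the rate, DCT converts dopachrome, and TYRP1 acts on the products and stabilises TYR. PMEL forms the fibrils on which melanin is laid down, MLANA takes part in the maturation of the organelle, the transporters OCA2, SLC45A2 and SLC24A5 set the ionic conditions and pH in it, and MC1R, the melanocortin receptor at the cell surface, signals through cyclic AMP to MITF. MITF is the transcription factor that regulates pigment genes through E-box sequences, of which the M-box is an extended form, and BRG1, encoded by SMARCA4, is the ATPase of chromatin remodelling complexes with which MITF associates.

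The sequences in front of the members' start sites are shown because MITF, a silenced factor, is known to bind such sites. Their part in the members' responses was not tested. RefSeq promoter sequences on GRCh38.p14 were matched for 8 of the 10 members, with 10 start sites between them. No sequence was matched for PMEL and SLC45A2, which were therefore not searched. In the 250 bases before the start, TCATGTG, the core of the M-box (reverse complement CACATGA), was present on either strand at 4 of the 10 start sites, those of TYR, TYRP1, SLC24A5 and the start site of DCT that lies at the annotated gene start. It was present in 2.52% of the 35116 promoter windows of the same length. These 4 windows are printed from 5′ to 3′ on the strand of the gene, with matches to TCATGTG or to the shorter CATGTG that it contains in capitals on either strand. Other than MLANA on chromosome 9, the members without a printed window lie on chromosome 12 (PMEL), 5 (SLC45A2), 15 (OCA2 and TRPM1) and 16 (MC1R). The printed windows lie at chr11:89177625-89177874 on the plus strand for TYR, chr9:12693135-12693384 on the plus strand for TYRP1, chr13:94479683-94479932 on the minus strand for DCT and chr15:48120740-48120989 on the plus strand for SLC24A5.
TYR: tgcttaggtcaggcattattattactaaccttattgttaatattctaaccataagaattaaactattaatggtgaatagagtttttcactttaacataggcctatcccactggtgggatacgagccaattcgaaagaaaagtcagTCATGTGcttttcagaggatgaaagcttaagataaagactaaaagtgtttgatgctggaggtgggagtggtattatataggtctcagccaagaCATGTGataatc
TYRP1: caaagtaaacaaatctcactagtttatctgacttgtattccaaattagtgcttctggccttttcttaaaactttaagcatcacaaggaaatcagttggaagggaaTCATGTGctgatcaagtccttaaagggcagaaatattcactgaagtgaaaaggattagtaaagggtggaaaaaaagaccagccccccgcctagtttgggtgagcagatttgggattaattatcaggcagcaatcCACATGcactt
DCT: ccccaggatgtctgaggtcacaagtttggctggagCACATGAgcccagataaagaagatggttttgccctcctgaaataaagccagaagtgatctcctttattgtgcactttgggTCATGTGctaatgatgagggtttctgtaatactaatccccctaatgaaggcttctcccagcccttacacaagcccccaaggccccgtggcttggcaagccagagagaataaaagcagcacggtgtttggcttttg
SLC24A5: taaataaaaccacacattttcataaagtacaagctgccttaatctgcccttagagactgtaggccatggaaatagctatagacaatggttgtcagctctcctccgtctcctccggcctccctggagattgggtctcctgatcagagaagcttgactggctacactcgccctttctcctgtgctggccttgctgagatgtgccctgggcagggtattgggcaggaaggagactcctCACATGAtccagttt

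In these windows TCATGTG began 105 bases before the start of TYR and 145 bases before that of TYRP1. DCT held 2 matches, beginning 215 and 135 bases before its start, and SLC24A5 held 1 that began 15 bases before its start on the opposite strand. CATGTG without the leading T was found in addition 12 bases before the start of TYR and 11 bases before that of TYRP1. E-boxes were searched only as CATGTG and CACGTG, and other sequences of the E-box form were not searched. Of these, CATGTG was the only match of OCA2, at 153 bases, of MC1R, at 64 bases, and of both start sites of TRPM1, at 56 and 8 bases. Of the 10 start sites, 8 held CATGTG, nested matches included, against 9.42% of all windows. CATGTG was not found for MLANA or for the second start site of DCT, and CACGTG, present in 6.34% of windows, was found at none of the 10. ACAAAG, a form of the SOX factor motif, was found at OCA2 and at 1 start site of TRPM1, and ACAATG at SLC24A5, against 13.7% and 9.29% of windows. A match describes only the letters in the window, and binding was not measured here.

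The total count per sample ranged from 29158502 to 78857900 reads on genes. The targeted genes were read first. SMARCA4 fell with shBRG1 by 2.36 on the log2 scale in 501Mel (edgeR adjusted p = 3.72e-21) and by 2.38 in Hermes 3A (adjusted p = 1.61e-24). MITF fell with shMITF by 1.06 in 501Mel (adjusted p = 0.00143) and by 0.85 in Hermes 3A (adjusted p = 0.0194). MITF also fell with shBRG1, by 1.55 in 501Mel (adjusted p = 8.04e-16) and by 0.43 in Hermes 3A (adjusted p = 1.34e-09). The spread between replicates was unequal, with a biological coefficient of variation of 4.53% to 5.86% in the shSCR1, shSCR and both shBRG1 groups, 16.2% and 17.0% in the shSCR2 and shMITF groups of 501Mel, and 29% in the shMITF group of Hermes 3A. All 10 members passed the filter on low counts in every comparison, and the lowest count of a member in any sample was 20 reads, for SLC45A2 in Hermes 3A with shMITF.

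Levels were compared first. Reads of all 19 samples were normalised together and are given as CPM, reads of a gene scaled to a common library total, while fold changes were fitted with the normalisation of their own comparison, so that a ratio of the printed CPM differs slightly from the fitted value. The members took between 3.13% and 3.30% of counted reads in 501Mel with shSCR1, and between 5.59% and 5.69% in Hermes 3A with shSCR. PMEL had the highest count of any gene in each of the 3 shSCR1 samples, and TYRP1 in each of the 3 Hermes 3A shSCR samples. Before sequencing, abundant cDNAs were reduced with a duplex-specific nuclease, and the part of this step in the levels of PMEL and TYRP1 was not tested.

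Per kilobase of exons, which makes genes of unequal length comparable, PMEL was the most abundant member in 501Mel with shSCR1 at 4981 ± 138 CPM per kilobase (SD, n = 3), followed by TYRP1 at 1593 ± 88.5 and TYR at 419 ± 6.00. MLANA followed at 378 ± 16.9, SLC45A2 at 277 ± 17.1, DCT at 208 ± 26.0 and TRPM1 at 71.0 ± 3.68. SLC24A5 at 42.3 ± 3.49 and OCA2 at 23.2 ± 1.59 lay lower, and MC1R was the least abundant at 4.60 ± 0.221 CPM per kilobase. In Hermes 3A with shSCR the order began with TYRP1 at 7839 ± 288 and PMEL at 7090 ± 164 CPM per kilobase, and OCA2 stood above TRPM1 and SLC24A5, at 313 ± 2.50. It ended with SLC45A2 at 3.53 ± 0.257, DCT at 2.91 ± 0.202 and MC1R at 2.31 ± 0.177. The melanocyte line thus held low levels of DCT and SLC45A2 beside high levels of the other pigment transcripts apart from MC1R. With the length of the longest transcript in place of the union of exons the order in 501Mel with shSCR1 was the same, and in Hermes 3A DCT and SLC45A2 exchanged places.

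**Figure D1:**
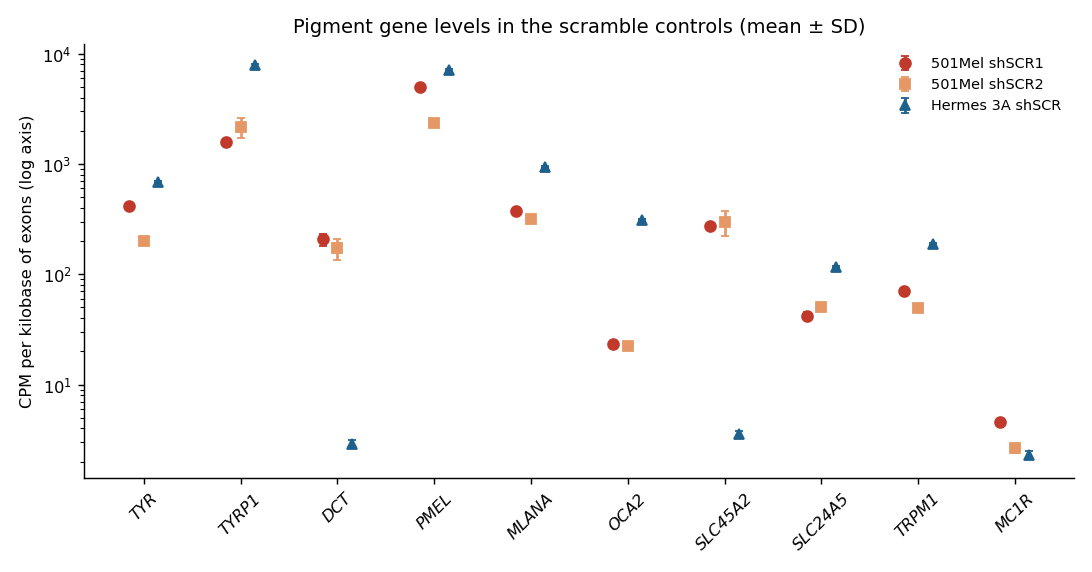
Level of each pigment gene in the scramble controls as CPM per kilobase of exons on a log axis, drawn as mean ± SD for 501Mel shSCR1 (n = 3), 501Mel shSCR2 (n = 2) and Hermes 3A shSCR (n = 3). DCT and SLC45A2 lay at 2.91 and 3.53 CPM per kilobase in Hermes 3A and between 173 and 299 in both 501Mel controls.

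The scramble controls of the cell lines were set against each other to ask how the pigment genes differ between untransformed melanocytes and melanoma cells. All 10 members differed between Hermes 3A shSCR and 501Mel shSCR1, 7 of them higher in Hermes 3A (40.2% of all tested genes were higher) and 3 lower (41.4% were lower). The groups did not overlap for any member, and the share of all tested genes for which this held was not counted. The lines, their donors and their media differ together and cannot be told apart here.

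Among the enzymes, DCT stood at 1340, 1688 and 1670 CPM in the shSCR1 samples of 501Mel and at 22.0, 20.4 and 23.4 CPM in the shSCR samples of Hermes 3A. Every Hermes 3A value thus lay far under every 501Mel value, at 1.41% of the 501Mel level (log2 difference -6.15 ± 0.083 SE, adjusted p = 1.10e-24). TYRP1 was higher in Hermes 3A, at 28998, 28449 and 30525 CPM against 5577, 6174 and 6124 CPM (log2 difference 2.30 ± 0.051, adjusted p = 1.61e-22). TYR was higher by 0.71 on the log2 scale (adjusted p = 1.96e-13). The 3 enzymes of the same pathway therefore differed between the lines in opposite directions.

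Of the structural proteins, PMEL was higher in Hermes 3A by 0.51 and MLANA by 1.33 on the log2 scale (adjusted p = 3.26e-10 and 1.76e-18). The transporters split again. SLC45A2 stood at 840, 944 and 928 CPM in 501Mel and at 12.5, 10.8 and 11.3 CPM in Hermes 3A, or 1.28% of the 501Mel level (log2 difference -6.28 ± 0.066, adjusted p = 7.35e-29). OCA2 went the other way, from 70.8, 81.0 and 77.8 CPM in 501Mel to 1040, 1035 and 1024 CPM in Hermes 3A (log2 difference 3.76 ± 0.054, adjusted p = 2.33e-26). SLC24A5 was higher in Hermes 3A by 1.47 (adjusted p = 1.64e-18). The channel TRPM1 was higher by 1.42 (adjusted p = 6.42e-19). The receptor MC1R was lower, at 50.4% of the 501Mel shSCR1 level (log2 difference -0.99, adjusted p = 1.30e-11). The size of this difference depended on the 501Mel control. MC1R had a mean of 12.9 CPM in Hermes 3A shSCR, against 25.6 CPM in 501Mel shSCR1 and 14.8 CPM in 501Mel shSCR2. The same held for other members. In the same order of groups TYR had means of 2064, 1263 and 605 CPM and PMEL of 27659, 19430 and 9284 CPM. For TYRP1, at 29324, 5958 and 8086 CPM, shSCR2 was the control nearer to Hermes 3A. Only shSCR1 was tested against Hermes 3A.

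Both scramble groups of 501Mel were then compared, since each knockdown was read against its own control. Of the members, 5 were lower in shSCR2 than in shSCR1 (34.5% of all tested genes were lower), 2 were higher (35.3% were higher) and 3 did not pass the test. TYR stood at 596 and 613 CPM in shSCR2 against 1244, 1280 and 1265 in shSCR1 (log2 difference -1.05 ± 0.064, adjusted p = 1.71e-06), and PMEL at 9118 and 9451 against 19035, 20043 and 19213 CPM (-1.05 ± 0.075, adjusted p = 3.33e-06). Both genes were thus at 48.3% and 48.2% of their shSCR1 level with no knockdown. MC1R, TRPM1 and MLANA were lower by smaller amounts, with log2 differences of -0.78, -0.50 and -0.24, and TYRP1 and SLC24A5 were higher, at 0.45 and 0.26. The call of MLANA was lost without shSCR1 replicate 3 (adjusted p = 0.0609), and that of SLC24A5 without shSCR1 replicate 1 or 2 (adjusted p = 0.0602 and 0.0546), with library sizes or with at least 10 counts in every sample (adjusted p = 0.179 and 0.110). DCT, OCA2 and SLC45A2 had log2 differences of -0.25, -0.03 and 0.12 (adjusted p = 0.189, 0.701 and 0.430). DCT passed with no filter on low counts (-0.27, adjusted p = 0.00421). Without shSCR2 replicate 1 DCT passed at -0.46 (adjusted p = 0.0101) and SLC45A2 at 0.39 (adjusted p = 2.06e-05), while without shSCR2 replicate 2 SLC45A2 had -0.14 (adjusted p = 0.0771).

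**Figure D2:**
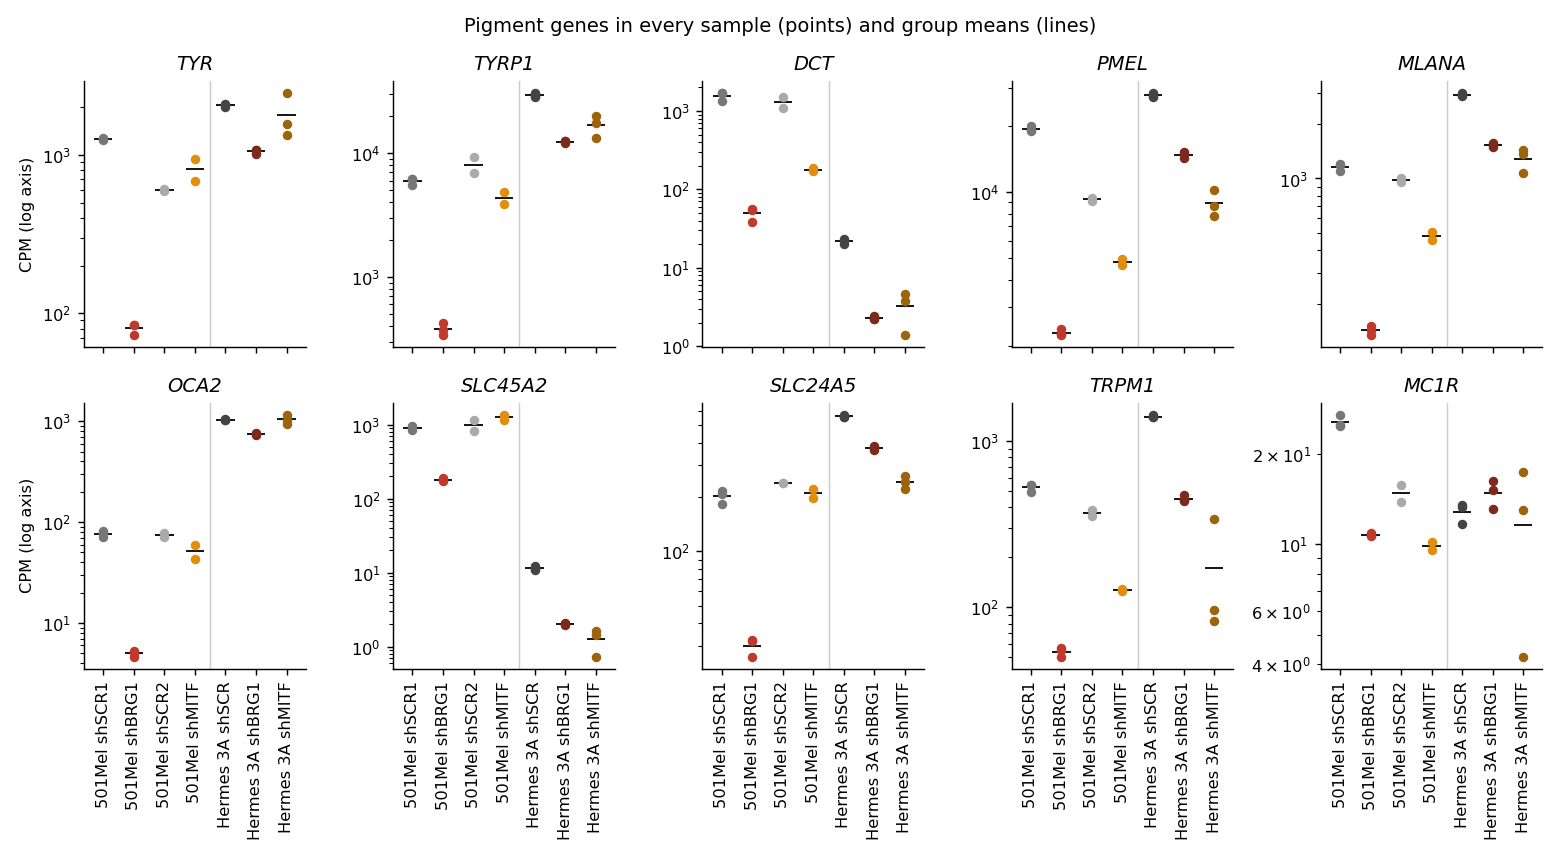
Level of each pigment gene in every sample as CPM normalised over all 19 samples, on a log axis of its own per gene. Points are samples, short lines are group means, and the grey line separates 501Mel from Hermes 3A. The shBRG1 samples of 501Mel lie under every other 501Mel sample except for MC1R, and TRPM1 in Hermes 3A with shMITF has 1 sample at 342 CPM above the others at 82.5 and 96.5.

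Over the 7 groups the members had unequal ranges. The ratio of the highest to the lowest group mean was 975 for SLC45A2, 684 for DCT, 208 for OCA2 and 77.2 for TYRP1, and between 12.1 and 26.0 for TYR, PMEL, MLANA, SLC24A5 and TRPM1. It was 2.58 for MC1R. Hermes 3A with shSCR had the highest mean for 6 members, and 501Mel with shBRG1 the lowest for 7. For TYR the order fell from Hermes 3A shSCR over Hermes 3A shMITF, 501Mel shSCR1, Hermes 3A shBRG1, 501Mel shMITF and 501Mel shSCR2 to 501Mel shBRG1, and only the first pair of neighbours overlapped. For MC1R 3 of the 6 pairs of neighbours overlapped, at means between 9.90 and 25.6 CPM.

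The profile over the 19 samples was summarised as the mean of the members' standardised log2 CPM. Pearson's r with this mean was between 0.89 and 0.95 for PMEL, MLANA, TRPM1, SLC24A5 and TYR, 0.86 for TYRP1, 0.70 for OCA2 and 0.49 for MC1R, while DCT had 0.16 and SLC45A2 -0.11. Each member is itself part of the mean, which raises its r, while genes outside the list are not. DCT and SLC45A2 had r = 0.94 between their own profiles over the 19 samples, which include the difference between the lines. DCT had means of 1566 CPM in 501Mel shSCR1 and 22.0 CPM in Hermes 3A shSCR, and SLC45A2 of 904 and 11.5 CPM. With shMITF in 501Mel their log2 fold changes were unlike, at -2.82 for DCT and 0.39 for SLC45A2, which did not pass the test. Among 10054 other genes the most similar profiles included those of TACC1 (r = 0.98), PCYT2 (r = 0.98), FMN1 (r = 0.97) and B3GLCT (r = 0.97). These values are descriptions, since the 19 samples fall into 7 groups of 2 cell lines and share their group's differences in depth and spread.

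With shBRG1 in 501Mel all 10 members fell. Each passed an adjusted p under 0.05 with a log2 fold change under -1, the thresholds used for a down-regulated gene, and in each the 3 shBRG1 samples lay under the 3 shSCR1 samples. Of all tested genes, 17.4% were down-regulated in this sense, 39.1% were lower and 41.2% were higher at the adjusted p alone. How many of all tested genes had groups that did not overlap was not counted. The median log2 fold change of the members was -3.25, against 0.053 over all tested genes. Together the members fell from at least 3.13% of counted reads to at most 0.428%. In bulk RNA fewer pigmented cells and less RNA per cell cannot be told apart, here and in the other comparisons.

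DCT, TYRP1 and TYR, the enzymes, had the lowest log2 fold changes. TYR stood at 1244, 1280 and 1265 CPM with shSCR1 and at 84.7, 73.0 and 84.7 CPM with shBRG1, and remained at 6.11% of the control (log2 fold change -4.03 ± 0.061 SE, adjusted p = 4.19e-24). TYRP1 went from 5577, 6174 and 6124 to 425, 340 and 375 CPM (-4.04 ± 0.073, adjusted p = 6.92e-23). DCT fell from 1340, 1688 and 1670 to 54.9, 38.6 and 55.8 CPM, and remained at 3.03% (-5.04 ± 0.21, adjusted p = 9.68e-06). No other member fell as far as DCT, and its error was also the widest.

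PMEL, the fibril protein, fell from 19035, 20043 and 19213 to 2383, 2242 and 2254 CPM, or 11.3% of the control (-3.15 ± 0.058, adjusted p = 8.47e-23). MLANA fell from 1105, 1202 and 1187 to 152, 135 and 144 CPM (-3.08 ± 0.056, adjusted p = 6.93e-23). PMEL remained the most abundant member per kilobase, at 588 CPM per kilobase. The CDK2 gene lies opposite to PMEL, shares 89 exon bases with it and had between 2.30% and 13.5% of the PMEL count over the 19 samples. The strand setting of the counting is not given, so that reads of these genes cannot be told apart there. CDK2 was named after its values were seen.

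Among the transporters OCA2 fell from 70.8, 81.0 and 77.8 to 5.31, 4.65 and 5.05 CPM, or 6.25% of the control (-4.00 ± 0.070, adjusted p = 3.91e-23). SLC45A2 fell from 840, 944 and 928 to 174, 176 and 190 CPM (-2.39 ± 0.055, adjusted p = 4.57e-21). SLC24A5 fell from 183, 208 and 215 to 32.3, 26.2 and 31.8 CPM (-2.81 ± 0.075, adjusted p = 6.01e-17). SLC24A5 shares 1574 exon bases with MYEF2 on the opposite strand, whose count was between 22.4% and 66.6% of its own. OCA2 thus remained at a share of its control near those of TYR and TYRP1, and the other two transporters at larger shares.

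TRPM1 fell from 498, 548 and 542 to 56.6, 50.6 and 55.5 CPM (-3.35 ± 0.057, adjusted p = 2.49e-23). MC1R had the smallest fall, from 24.9, 24.8 and 27.0 to 10.7, 10.9 and 10.7 CPM, or 40.3% of the control (-1.31 ± 0.064, adjusted p = 5.49e-15). With library sizes in place of normalisation factors MC1R stood at -0.96 (adjusted p = 8.73e-12), short of the fold threshold, and the down-regulated members were 9. MC1R shares 547 exon bases with the neighbouring gene TCF25 and 1192 with another protein-coding gene, both on its own strand. The TCF25 count was between 423% and 3440% of the MC1R count over the 19 samples. The MC1R count is thus uncertain in every comparison where reads were split between these genes.

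Of 38 other genes of pigmentation, 37 were tested, and 31 were lower with shBRG1 in 501Mel, 3 higher and 3 did not pass. All 8 genes of the melanosome membrane and its ions were lower, among them TPCN2, a cation channel of the organelle, at -2.82 and GPNMB, a relative of PMEL, at -2.39. Of 19 genes of melanosome sorting and transport 14 were lower, including RAB27A at -2.47 and its effector MLPH at -2.13, and 2 were higher, VPS33A at 0.50 and HPS1 at 1.24. Of the 10 tested regulators 9 were lower, with SOX10 at -2.44 and ASIP at -2.39, and LEF1 was higher at 1.41. The pathway list was chosen with earlier results of these data known.

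**Figure D3:**
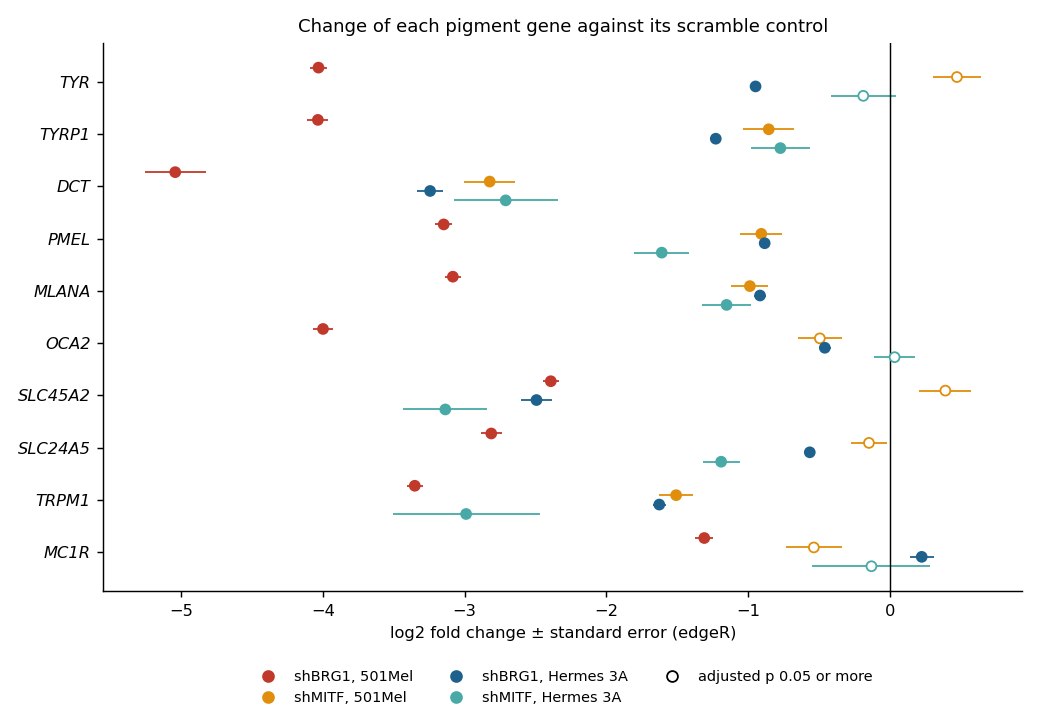
Log2 fold change of each pigment gene against its own scramble control, with a standard error derived from the edgeR test, for shBRG1 and shMITF in each line. Open points did not pass an adjusted p under 0.05. All 10 filled points of shBRG1 in 501Mel lie between -5.04 and -1.31, and TYR, OCA2 and MC1R are open for shMITF in both lines.

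With shMITF in 501Mel the members divided. Of the members, 5 were lower (10.5% of all tested genes were lower), no member was higher by edgeR's test (10% were higher) or by DESeq2, and 5 did not pass. TYR was the 1 member above its control with an unadjusted p under 0.05. DCT and TRPM1 were down-regulated past the fold threshold, which 3.4% of tested genes were. The median of the members was -0.70 and that of all genes 0.010. In each of the 10 members the 2 shMITF samples lay on one side of the 2 shSCR2 samples after normalisation within the comparison. The members that did not pass are included in this. Groups of 2 samples can separate with no change in a gene, and the share of all tested genes that did so was not counted.

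DCT fell from 1504 and 1102 CPM with shSCR2 to 171 and 187 CPM with shMITF, or 14.1% of the control (-2.82 ± 0.18, adjusted p = 0.000168). TYRP1 went from 6931 and 9240 to 4826 and 3880 CPM (-0.86 ± 0.18, adjusted p = 0.0114). TYR stood at 596 and 613 CPM with shSCR2 and at 689 and 939 CPM with shMITF, so that both silenced samples were above both controls (0.47 ± 0.17, adjusted p = 0.078). Its direction depended on the control. Against both scramble groups pooled it stood at -0.26 (adjusted p = 0.719), while it passed at 0.69 without shMITF replicate 1 (adjusted p = 0.00237) and at 0.57, 0.48 and 0.45 with library sizes, with no filter and when the 4 groups of 501Mel were fitted jointly (adjusted p = 0.0397, 0.00516 and 0.0109). The members with M-box cores in their windows had log2 fold changes of -2.82 for DCT, -0.86 for TYRP1, -0.15 for SLC24A5 and 0.47 for TYR. Of the members searched that held no core, TRPM1 had -1.51, MLANA -0.99, MC1R -0.54 and OCA2 -0.49. The part of the core in these values was not tested.

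PMEL fell from 9118 and 9451 to 4665 and 4960 CPM (-0.91 ± 0.15, adjusted p = 0.00384), and MLANA from 960 and 1002 to 454 and 507 CPM (-0.99 ± 0.13, adjusted p = 0.00164). TRPM1 fell from 355 and 387 to 129 and 125 CPM (-1.51 ± 0.12, adjusted p = 0.000242). With both scramble groups pooled the calls of PMEL (-1.65, adjusted p = 0.0709) and TYRP1 (-0.62, adjusted p = 0.192) were lost, as was that of TYRP1 without shSCR2 replicate 2 (-0.66, adjusted p = 0.0793). Without shSCR2 replicate 1 the down-regulated members were 4, since TYRP1 at -1.06 and MLANA at -1.03 then passed the fold threshold.

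The transporters did not pass, although SLC45A2 and OCA2 did so under some alternatives. SLC45A2 stood at 805 and 1151 CPM with shSCR2 and at 1139 and 1350 CPM with shMITF. These groups did not overlap after normalisation within the comparison and did when all samples were normalised together (0.39 ± 0.18, adjusted p = 0.169). SLC24A5 was at 240 and 238 against 197 and 222 CPM (-0.15 ± 0.13, adjusted p = 0.447), and OCA2 at 70.8 and 77.3 against 59.5 and 43.1 CPM (-0.49 ± 0.16, adjusted p = 0.0537). MC1R stood at 15.8 and 13.8 against 9.58 and 10.2 CPM (-0.54 ± 0.20, adjusted p = 0.0859). OCA2 and MC1R lay just above the threshold and passed it with DESeq2 (adjusted p = 0.0308 and 0.0468). Both also passed when the 4 groups of 501Mel were fitted jointly (adjusted p = 0.00372 and 0.00131). OCA2 passed in addition with no filter on low counts, with a replicate block, and without shSCR2 replicate 1 or shMITF replicate 1 (adjusted p = 0.00962, 0.0472, 0.0317 and 0.00723). SLC45A2 passed above its control with no filter and without shSCR2 replicate 2 (adjusted p = 0.0316 and 0.0495).

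Of the 37 other pigmentation genes tested, 11 were lower with shMITF in 501Mel, 5 higher and 21 did not pass. Of the melanosome membrane genes TPCN2 (-1.27) and the copper pump ATP7A (-0.77) fell, and the exchangers SLC24A4 (2.24) and SLC7A11 (1.64) rose. RAB27A fell by 1.31 and HPS5 by 0.71 on the log2 scale among the 4 sorting and transport genes that fell. Among the regulators ASIP fell by 2.92, and PAX3 and LEF1 rose by 0.71 and 1.32. ASIP was low in both groups, with means of 1.69 CPM with shSCR2 and 0.210 CPM with shMITF. Its mean was 6.69 CPM in the other scramble group, shSCR1.

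In 501Mel the log2 fold change was lower with shBRG1 than with shMITF for all 10 members, each read against its own scramble control (26.8% of tested genes lay below 0 in this difference and 21.2% above). The difference was largest for TYR, at -4.48 ± 0.17 on the log2 scale (adjusted p = 1.30e-10), followed by OCA2 at -3.48 ± 0.17 and TYRP1 at -3.16 ± 0.18. It was smallest for MC1R, at -0.75 ± 0.14 (adjusted p = 0.000468). For DCT it was -2.19 ± 0.27 and for TRPM1 -1.82 ± 0.11. These differences, and their order, include the differences between the 501Mel controls. TYR had means of 1263 CPM with shSCR1 and 605 CPM with shSCR2, TYRP1 of 5958 and 8086 CPM, and OCA2 of 76.5 and 74.0 CPM. In the silenced groups TYR had 80.8 CPM with shBRG1 and 814 CPM with shMITF, TYRP1 380 and 4353 CPM, and OCA2 5.00 and 51.3 CPM. MITF also fell further with shBRG1 than with shMITF, by 0.46 on the log2 scale (adjusted p = 0.0105). The controls held unequal levels of MITF, with means of 574 CPM with shSCR1 and 1115 CPM with shSCR2. The silenced groups stood at 205 CPM with shBRG1 and 519 CPM with shMITF. The part of these levels and falls of MITF in the members' values was not tested.

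With shBRG1 in Hermes 3A 9 members were lower (28.6% of all tested genes were lower) and MC1R was higher (28.2% were higher). DCT, SLC45A2, TRPM1 and TYRP1 were down-regulated past the fold threshold, which 3.47% of tested genes were. The median of the members was -0.93 and that of all genes 0.009. The groups did not overlap for the 9 members that fell, and how many of all tested genes were apart in this way was not counted. The members together went from at least 5.59% of counted reads to at most 3.00%.

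DCT, already low in this line, fell from 22.0, 20.4 and 23.4 to 2.25, 2.40 and 2.22 CPM, or 10.6% of the control (-3.24 ± 0.094, adjusted p = 2.34e-21). TYRP1 fell from 28998, 28449 and 30525 to 12620, 12483 and 12114 CPM (-1.23 ± 0.037, adjusted p = 5.53e-21). TYR fell from 2070, 2008 and 2114 to 1082, 1080 and 1020 CPM, or 51.8% of the control (-0.95 ± 0.042, adjusted p = 2.66e-17). PMEL fell from 27585, 28330 and 27060 to 15307, 14994 and 14299 CPM (-0.88 ± 0.037, adjusted p = 1.11e-17). MLANA fell from 2898, 2884 and 2982 to 1535, 1573 and 1495 CPM (-0.92 ± 0.041, adjusted p = 3.35e-17). TYR, PMEL and MLANA thus remained at 51.8% to 54.2% of their controls.

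SLC45A2, the other member at low level, fell from 12.5, 10.8 and 11.3 to 2.01, 2.11 and 1.96 CPM, or 17.8% of the control (-2.49 ± 0.11, adjusted p = 3.74e-17). These are between 85 and 122 reads per silenced sample. OCA2 fell from 1040, 1035 and 1024 to 762, 731 and 742 CPM (-0.46 ± 0.041, adjusted p = 9.38e-11), and SLC24A5 from 556, 552 and 569 to 385, 374 and 365 CPM (-0.57 ± 0.039, adjusted p = 5.28e-13). TRPM1 fell from 1393, 1393 and 1442 to 441, 477 and 438 CPM (-1.63 ± 0.044, adjusted p = 5.97e-22). MC1R stood at 13.5, 13.3 and 11.7 CPM with shSCR and at 13.1, 16.3 and 15.1 CPM with shBRG1. These groups overlapped, and the small rise (0.22 ± 0.086, adjusted p = 0.0265) was lost when all groups of the line were fitted together (adjusted p = 0.724) and without shSCR replicate 3 or shBRG1 replicate 2 or 3 (adjusted p = 0.137, 0.227 and 0.0942).

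Of 36 other pigmentation genes tested in this comparison 23 were lower, 8 higher and 5 did not pass. The tetraspanin CD63 (-0.996) and TPCN2 (-0.90) fell and the cystine exchanger SLC7A11 rose (1.03). The small GTPases RAB32 (-1.08) and RAB38 (-1.02), which direct the enzymes to the melanosome, fell, and BLOC1S1 (0.68) and MREG (0.37) rose. Of the regulators the receptors EDNRB (-0.80) and KIT (-0.56) fell, and TFAP2A (0.22) and LEF1 (0.13) rose.

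With shMITF in Hermes 3A 7 members were lower (9.15% of all tested genes were lower), none was higher by edgeR's test (7.85% were higher), and TYR, OCA2 and MC1R did not pass. No member above its control had an unadjusted p under 0.05 or passed with DESeq2. SLC45A2, TRPM1, DCT, PMEL, SLC24A5 and MLANA were down-regulated past the fold threshold, which 4.04% of tested genes were. The median of the members was -1.17 and that of all genes 0.045. This comparison used the same shSCR samples as shBRG1 in Hermes 3A, so that their values are given side by side and no overlap is counted. The deposited counts list 34033 gene identifiers for the shMITF samples of Hermes 3A and 42224 for its shSCR and shBRG1 samples. Knockdown and any difference in counting therefore cannot be told apart in comparisons with these shMITF samples.

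SLC45A2 had the lowest log2 fold change and went from 12.5, 10.8 and 11.3 to 1.45, 1.65 and 0.733 CPM, or 51, 52 and 20 reads (-3.14 ± 0.30, adjusted p = 0.000707). SLC24A5 fell from 556, 552 and 569 to 241, 220 and 261 CPM (-1.19 ± 0.13, adjusted p = 0.00114). OCA2 did not pass, at 939, 1025 and 1154 CPM with shMITF against 1040, 1035 and 1024 CPM (0.03 ± 0.15, adjusted p = 0.902). The 3 transporters of the melanosome membrane therefore had log2 fold changes of -3.14, -1.19 and 0.03.

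DCT fell from 22.0, 20.4 and 23.4 to 4.60, 3.80 and 1.39 CPM (-2.71 ± 0.37, adjusted p = 0.00291). TYRP1 went from 28998, 28449 and 30525 to 19879, 17352 and 13352 CPM (-0.77 ± 0.21, adjusted p = 0.0385), and this call was lost without shSCR replicate 1, 2 or 3 (adjusted p = 0.158, 0.151 and 0.177). TYR stood at 1560, 1328 and 2459 CPM with shMITF, on both sides of 2070, 2008 and 2114 CPM with shSCR (-0.19 ± 0.23, adjusted p = 0.620). PMEL fell from 27585, 28330 and 27060 to 10287, 8657 and 7779 CPM (-1.61 ± 0.19, adjusted p = 0.00193), and MLANA from 2898, 2884 and 2982 to 1362, 1442 and 1069 CPM (-1.15 ± 0.17, adjusted p = 0.00438). The structural genes thus fell while the rate-limiting enzyme did not pass the test.

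TRPM1 fell from 1393, 1393 and 1442 to 96.5, 342 and 82.5 CPM (-2.99 ± 0.52, adjusted p = 0.00731). Replicate 2 stood apart from the others with shMITF, and its MITF level was the highest of the 3, at 718 CPM against 455 and 543. The part of this in the TRPM1 level was not tested. Without that replicate the log2 fold change of TRPM1 was -3.96 (adjusted p = 9.87e-05), and with no filter on low counts it was -3.01 and did not pass (adjusted p = 0.0897). MC1R spread from 4.23 over 13.0 to 17.5 CPM with shMITF, on both sides of 13.5, 13.3 and 11.7 CPM with shSCR (-0.13 ± 0.42, adjusted p = 0.863).

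Of 36 other pigmentation genes tested, 10 were lower with shMITF in Hermes 3A, 2 higher and 24 did not pass. SLC24A4 (-1.42) and the melanosomal receptor GPR143 (-1.04) fell, RAB38 (-1.47) and HPS4 (-1.42) fell, and BLOC1S1 rose (1.24). Of the regulators MITF itself fell and PAX3 rose (0.67).

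Both silenced groups of Hermes 3A were also compared directly. PMEL and SLC24A5 were higher with shBRG1 than with shMITF, by 0.73 ± 0.19 (adjusted p = 0.0396) and 0.63 ± 0.12 (adjusted p = 0.0147) on the log2 scale (7.36% of tested genes were higher and 6.9% lower). The other 8 members did not pass, TRPM1 at 1.37 ± 0.50 (adjusted p = 0.113) and TYR at -0.76 ± 0.23 (adjusted p = 0.0687) among them. Without shMITF replicate 2 TRPM1 passed at 2.33 (adjusted p = 0.00139) and TYR at -0.93 (adjusted p = 0.0280). TYR and OCA2 passed with DESeq2 (adjusted p = 0.00863 and 0.00195), OCA2 without shMITF replicate 1 or 2 (adjusted p = 0.0111 and 0.0385), TYR without shMITF replicate 1 or with no filter (adjusted p = 0.0491 and 0.0417), and TYRP1 and DCT without shMITF replicate 3 (adjusted p = 0.0455 and 0.0338), all with less RNA with shBRG1. Without shBRG1 replicate 1, 2 or 3 neither PMEL (adjusted p = 0.187, 0.173 and 0.162) nor SLC24A5 (adjusted p = 0.103, 0.0938 and 0.0877) passed.

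The effect of each knockdown was finally compared between the lines, as the difference of log2 fold changes in 501Mel and Hermes 3A. For shBRG1 the effect was further below 0 in 501Mel for 9 members (33.1% of tested genes lay below 0 and 24.8% above). The difference was -3.57 ± 0.078 for OCA2 (adjusted p = 9.27e-31), -3.11 ± 0.074 for TYR (adjusted p = 1.30e-29) and -2.84 ± 0.086 for TYRP1 (adjusted p = 2.61e-26). For the other 6 it lay between -2.30 for PMEL and -1.57 for MC1R. SLC45A2 had a difference of 0.07 ± 0.11 (adjusted p = 0.596), with log2 fold changes of -2.39 in 501Mel and -2.49 in Hermes 3A, from control levels of 904 and 11.5 CPM. It passed with library sizes in place of normalisation factors, at 0.35 (adjusted p = 0.00498), and under a minimum of 10 counts per sample, at 0.27 (adjusted p = 0.0225).

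For shMITF 2 members differed between the lines, both above 0 (2.16% of tested genes lay above 0 and 0.83% below). SLC45A2 had a difference of 3.51 ± 0.35 (adjusted p = 0.000834), with log2 fold changes of 0.39 in 501Mel and -3.14 in Hermes 3A. SLC24A5 had a difference of 1.03 ± 0.19 (adjusted p = 0.0120), which was lost without 501Mel shSCR2 replicate 1 or 2, 501Mel shMITF replicate 2 or Hermes 3A shSCR replicate 2 (adjusted p = 0.0688, 0.0637, 0.0921 and 0.0504). TRPM1 had 1.47 ± 0.72 and did not pass (adjusted p = 0.328), and without Hermes 3A shMITF replicate 2 it had 2.44 (adjusted p = 0.000111). PMEL had 0.69 ± 0.26 and did not pass (adjusted p = 0.181), but did so with DESeq2 (0.67, adjusted p = 0.0231) and without Hermes 3A shMITF replicate 1 (0.81, adjusted p = 0.0207). The other 6 lay between -0.54 for OCA2 and 0.65 for TYR. DCT, at -0.13 ± 0.45, and MLANA, at 0.15 ± 0.23, had wide errors, and a p above the threshold does not show that the lines responded alike.

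**Figure D4:**
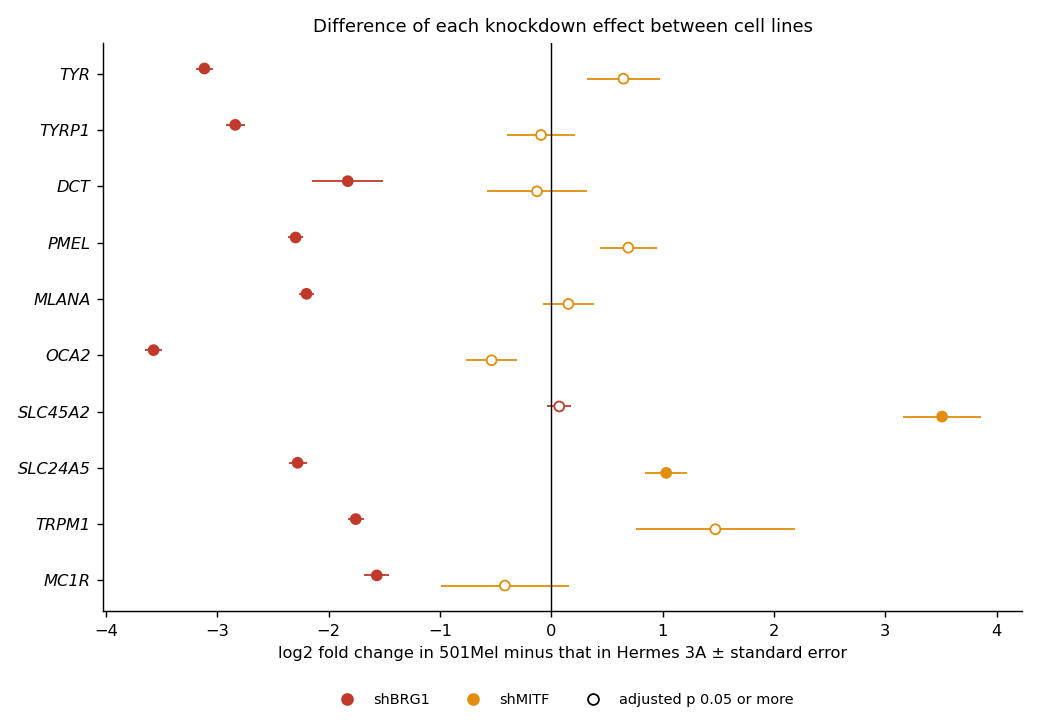
Difference of each knockdown effect between the lines, as the log2 fold change in 501Mel minus that in Hermes 3A, with its standard error. Open points did not pass an adjusted p under 0.05. For shBRG1 all members but SLC45A2 (0.07) lie at -1.57 or below, and for shMITF SLC45A2 stands at 3.51.

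Markers of other skin cells were read beside these results. The summed level of 6 fibroblast markers was between 3.86 and 5.38 CPM with shSCR1 and between 20.4 and 24.8 CPM with shBRG1 in 501Mel. There 4 of the 5 tested were higher (41.2% of all tested genes were), COL1A1 by 2.20 and COL3A1 by 4.37 on the log2 scale. COL3A1 was close to absent, at means of 0.00681 CPM with shSCR1 and 0.207 CPM with shBRG1. The summed level was between 6.91 and 8.21 CPM with shSCR2, where COL3A1 was at 0, and between 7.68 and 13.6 CPM with shMITF. With shMITF 2 of the 3 tested were higher (10% of all tested genes were). In Hermes 3A the summed level was between 61.7 and 69.8 CPM with shSCR, 129 and 140 CPM with shBRG1, and 101 and 205 CPM with shMITF, most of it COL1A2. Of the 4 tested, 2 were higher with each knockdown (28.2% of all tested genes with shBRG1 and 7.85% with shMITF). LUM was lower with shBRG1 (28.6% of all tested genes were). Of 6 keratinocyte markers only KRT10 reached 1 CPM in any group, and their summed level was between 26.9 and 58.5 CPM. Of those tested, TP63 was higher with shBRG1 in 501Mel (2.64, adjusted p = 9.25e-06), and KRT10 was higher with shMITF (0.64, adjusted p = 0.0366) and lower with shBRG1 (-0.21, adjusted p = 0.00485) in Hermes 3A. None of the 2 tested with shMITF in 501Mel passed. KRT1 was at 0 or not listed in every group but 501Mel shSCR1, and KRT5 and KRT14 were so in 501Mel shSCR2 and all Hermes 3A groups. The part of other cells in the members' values was not tested.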

How the data were processed

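RNA was measured in 19 samples of 501Mel and Hermes 3A by sequencing of total RNA depleted of ribosomal RNA. For each sample the authors deposited whole-number counts of reads by Ensembl identifier, made with CASAVA 1.8, TopHat 1.4.1 and Bowtie 0.12.7 on hg19 per the submitters' processing notes. The counter, its annotation and its strand setting are not given in the sources used here. The counts list 42224 identifiers in the shSCR1, shSCR and both shBRG1 groups. They list 41467 in the shSCR2 and shMITF groups of 501Mel and 34033 in the shMITF group of Hermes 3A. Only identifiers listed for every sample of a comparison were fitted.

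Each comparison was fitted across all genes that passed edgeR's filter on low counts, with edgeR 4.0.16 (TMM normalisation, quasi-likelihood test, Benjamini-Hochberg adjustment, R 4.3.3). A gene was called at an adjusted p under 0.05, and down-regulated with a log2 fold change under -1 in addition. Differences of effects were contrasts within one fit. Scripts were tested on simulated data. Alternatives were DESeq2 1.42.0, library sizes, other filters, a replicate block, wider fits and leaving out each replicate. Gene lengths came from GENCODE 29.

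The named genes were the 10 members, both targeted genes, up to 4 genes a list (the outermost calls in each direction) and the 5 most similar profiles, of which 1 is not reported here. The members and lists were chosen with earlier results of these data known.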

Additional observations from a re-analysis of the deposited data

Results flagged for a closer look

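In 11 cases a member's response to a knockdown differed between the cell lines by the test of the difference itself, given as the log2 fold change in 501Mel minus that in Hermes 3A. For shBRG1 these were OCA2 at -3.57, TYR at -3.11, TYRP1 at -2.84, PMEL at -2.30, SLC24A5 at -2.28, MLANA at -2.20, DCT at -1.83, TRPM1 at -1.76 and MC1R at -1.57. All 9 lay on the side of a deeper fall in the melanoma line, and MC1R is the 1 of them with a value above its control in Hermes 3A. For shMITF they were SLC45A2 at 3.51 and SLC24A5 at 1.03, which lay on the opposite side. The lines also differ in their media, their scramble groups and the depth of MITF loss, and the part of these in the differences was not tested.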

How the results depend on the processing

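With shBRG1 in 501Mel all 10 members were lower in every alternative and down-regulated in all but library sizes, where MC1R fell short of the fold threshold. With no fold threshold the counts of down-regulated genes were 8022, 1862, 4934 and 1510 for shBRG1 in 501Mel, shMITF in 501Mel, shBRG1 in Hermes 3A and shMITF in Hermes 3A, and the members among them were 5 for shMITF in 501Mel and 9 for shBRG1 in Hermes 3A. For shMITF in 501Mel the 602 down-regulated genes became 922 when the 4 groups of the line were fitted jointly and 248 with both scramble groups pooled, where TYR reversed to -0.26. With DESeq2 1422 genes differed in the shMITF effect between lines (576 with edgeR), and 4 members differed between shBRG1 and shMITF in Hermes 3A (2 with edgeR). With library sizes SLC45A2 reversed to -0.015 between shSCR2 and shSCR1, and the median of all genes moved by 0.348 for shBRG1 in 501Mel, 0.273 for its difference between lines, 0.225 for shBRG1 minus shMITF, 0.104 for shBRG1 in Hermes 3A, -0.138 between scramble groups and -0.258 between lines. The cause of these changes was not tested.

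Leaving out 1 replicate gave 2 to 4 down-regulated members for shMITF in 501Mel, 354 to 898 down-regulated genes for shMITF in Hermes 3A (667 with all), 1 to 3 members and 152 to 1298 genes for the shMITF difference between lines, and 0 to 5 members and 438 to 3922 genes between shBRG1 and shMITF in Hermes 3A (2414 with all). Directions turned for MC1R (-0.55 to 0.26) and OCA2 (-0.045 to 0.093) with shMITF in Hermes 3A, for SLC45A2 in the shBRG1 difference between lines (-0.011 to 0.20), for DCT (-0.47 to 0.19), TYRP1 (-0.28 to 0.13) and MC1R (-0.82 to 0.023) in the shMITF difference, for MC1R between shBRG1 and shMITF in Hermes 3A (-0.047 to 0.77), and for OCA2 (-0.11 to 0.058) and SLC45A2 (-0.14 to 0.39) between scramble groups. None of these passed with all replicates.

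Samples with the same replicate number did not deviate together in every pair (correlations of -0.16 to 0.33), so the numbers were not taken as a pairing. With a replicate block OCA2 passed for shMITF in 501Mel (adjusted p = 0.0472), TYRP1 was lost for shMITF in Hermes 3A (0.0901), PMEL was lost between shBRG1 and shMITF in Hermes 3A (0.091), which left 1 member, and MLANA was lost between scramble groups (0.0549). With a block within each line 9 and 2 members differed between lines for shBRG1 and shMITF, and no block was run between the scramble groups of the lines. Groups of 2 replicates for shMITF in 501Mel and a biological coefficient of variation of 29% for shMITF in Hermes 3A limit these comparisons.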
